A study of Mus musculus with 27 samples.

Results

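Transcript levels of 10 genes for components of the mTORC1 pathway were followed in mouse liver: Mtor, Rptor, Deptor, Akt1s1, Tsc1, Tsc2, Rheb, Rps6kb1, Eif4ebp1 and Eif4ebp2. They were taken by gene name from the table of normalised read counts, where they are 10 of 45706 genes, and all 10 were among the 15932 genes kept for testing, for which 3 or more libraries had 10 or more. The livers were those of wild-type mice whose strain is given as C57/BLN6, and every mouse had gone without food for 16 h. After that fast, 4 groups were refed for 30, 60, 120 or 240 min, 4 groups had caged food for 30, 60, 120 or 240 min, and 1 group stayed fasted as the control. Caged food is known from the study as food that can be seen and smelled but not eaten, so refed against caged food livers compares eating with sensing. Each of the 9 groups held 3 biological replicates with 1 library each, prepared from polyadenylated RNA by a stranded protocol. The fasted group was not matched in time to the fed groups, so food and time of day cannot be told apart in comparisons with it.

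mTORC1 is a protein kinase complex that promotes the synthesis of proteins and lipids and restrains autophagy when amino acids, insulin and energy are plentiful. Mtor encodes the kinase, Rptor the scaffold raptor that brings substrates to it, and Deptor and Akt1s1 (PRAS40) encode inhibitors bound to the complex. Insulin signalling through AKT inactivates the TSC complex of Tsc1 and Tsc2, which otherwise keeps the small GTPase encoded by Rheb, a direct activator of mTORC1, in its inactive form. Rps6kb1 encodes a kinase of ribosomal protein S6, and Eif4ebp1 and Eif4ebp2 encode repressors that hold the cap-binding translation factor eIF4E until mTORC1 phosphorylates them. Liver mTORC1 is known to be switched on by feeding through phosphorylation, which transcript levels do not measure.

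Totals of the values, which the authors had already scaled per library, lay between 40654573 and 50037562 normalised read counts. The estimated depth was 25.6 to 52.4 M reads with a median of 47.0 M reads. Pearson's r across genes between replicates of a group was 0.979 to 0.991 on the log2 scale. All 8 hepatocyte markers were detected, with a summed level of 3656018 to 6814894 normalised read counts. Summed levels were 8980 to 25210 for 6 Kupffer cell markers, 14733 to 24162 for 6 markers of sinusoidal endothelium, 11641 to 21273 for 6 stellate cell markers and 986 to 1988 for 5 cholangiocyte markers. They were 470 to 2336 for 7 leukocyte markers, 4329 to 11783 for 3 erythroid markers and 262 to 1225 for 4 adipocyte markers. The 10 markers of pancreatic acinar cells summed to 313 to 692 in 26 libraries and to 6116 in refed 30 min replicate 1. At 240 min the titles and the treatment labels of 2 libraries, refed replicate 3 and caged food replicate 1, name opposite groups. The titles were followed. The calls of members and the counts of members without overlap at 240 min are given with and without these libraries. Where 3 values of 240 min are listed, the last refed value and the first caged food value come from these libraries. RNA came from whole tissue, so fewer cells of a type and less RNA per cell cannot be told apart.

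The promoters of the members that changed between refed and fasted livers are shown first, because these genes moved in opposite directions within 240 min. RefSeq sequences of GRCm38.p6 from 250 bases before to 50 bases after the start site in RefSeq were at hand for 8 of 10 members. None was at hand for Deptor and Eif4ebp1. The windows of Rheb and Akt1s1 lie wholly within the gene bounds of the GENCODE M21 annotation. Their matches are therefore not upstream of the gene start in that annotation. Each was searched on both strands for an E-box (CACGTG), a GC box (GGGCGG), a cAMP response element (TGACGTCA), a CCAAT box (CCAAT), the core of the NRF1 site (GCATGC), an ETS site (CCGGAAG), a forkhead site (GTAAACA) and an ATF4 element (TGATGCAA). None of these letter strings contains another. Capitals mark the matches in the sequences, which read 5′ to 3′ on the strand of the gene. Mtor (chr4:148448332-148448631, plus strand) and Eif4ebp2 (chr10:61452620-61452919, minus strand) fell. Rps6kb1 (chr11:86544758-86545057, minus strand), Rptor (chr11:119602655-119602954, plus strand) and Rheb (chr5:24842312-24842611, minus strand) rose.
Mtor: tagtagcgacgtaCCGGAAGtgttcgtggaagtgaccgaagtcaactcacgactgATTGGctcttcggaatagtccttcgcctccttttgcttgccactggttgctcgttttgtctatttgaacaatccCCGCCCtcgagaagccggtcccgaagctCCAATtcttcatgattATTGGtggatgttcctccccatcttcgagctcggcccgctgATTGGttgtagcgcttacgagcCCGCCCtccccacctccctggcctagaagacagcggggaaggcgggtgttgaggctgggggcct
Eif4ebp2: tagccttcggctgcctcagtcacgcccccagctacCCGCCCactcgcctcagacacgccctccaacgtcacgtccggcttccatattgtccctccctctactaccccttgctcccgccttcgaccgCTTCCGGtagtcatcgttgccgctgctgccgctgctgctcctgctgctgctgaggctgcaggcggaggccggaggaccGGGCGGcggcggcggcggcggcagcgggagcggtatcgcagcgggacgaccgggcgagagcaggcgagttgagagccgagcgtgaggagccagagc
Rps6kb1: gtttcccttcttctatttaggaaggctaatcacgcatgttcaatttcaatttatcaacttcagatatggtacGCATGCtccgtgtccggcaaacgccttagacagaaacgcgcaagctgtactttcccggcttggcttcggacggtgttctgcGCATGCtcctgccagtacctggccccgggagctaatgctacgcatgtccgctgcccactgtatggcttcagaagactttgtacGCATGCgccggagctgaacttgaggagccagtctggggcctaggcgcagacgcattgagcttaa
Rptor: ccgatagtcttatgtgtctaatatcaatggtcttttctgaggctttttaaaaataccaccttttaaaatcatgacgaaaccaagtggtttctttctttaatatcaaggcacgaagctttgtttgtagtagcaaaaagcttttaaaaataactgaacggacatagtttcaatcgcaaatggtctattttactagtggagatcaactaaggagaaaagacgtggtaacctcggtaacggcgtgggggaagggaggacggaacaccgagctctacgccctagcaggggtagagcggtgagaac
Rheb: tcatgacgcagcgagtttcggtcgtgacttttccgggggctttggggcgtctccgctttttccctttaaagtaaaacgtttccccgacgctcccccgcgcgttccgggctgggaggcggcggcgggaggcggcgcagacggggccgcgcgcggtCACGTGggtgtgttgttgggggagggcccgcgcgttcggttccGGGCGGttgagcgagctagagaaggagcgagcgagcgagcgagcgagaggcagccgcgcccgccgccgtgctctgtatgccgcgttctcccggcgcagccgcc
The Mtor promoter held 4 matches to the CCAAT box, at -195, -93, -77 and -36 from the start site, 2 GC boxes and 1 ETS site. Eif4ebp2 held 2 GC boxes and 1 ETS site, and Rheb held 1 E-box at -96 and 1 GC box. Rps6kb1 held 3 matches to GCATGC, at -178, -97 and -14, and no other string searched. The Rptor window is AT-rich beside the others, with 41.7% G and C against 53.3% to 70% in the other 4, and held no match. Among 32851 promoters of the same length, the CCAAT box was present in 37.4%, the GC box in 35.7%, the ETS string in 8.86%, GCATGC in 7.93%, the E-box in 7.15%, the forkhead string in 3.65%, the cAMP response element in 1.79% and the ATF4 element in 0.895%. Of the members not shown, Akt1s1 held 2 GC boxes and 1 ETS site, Tsc2 held 2 ETS sites, and Tsc1 held none of the 8 strings. A match is a string of letters and not a site of binding.

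Per kilobase of annotated exon, the inhibitor genes and the translation repressors stood highest and the genes of the S6 kinase, raptor and hamartin (Tsc1) lowest. Median levels over the 27 libraries, in normalised read counts per exonic kb, were 1213 for Deptor, 878 for Akt1s1, 831 for Eif4ebp2 and 759 for Eif4ebp1. They were 324 for Mtor, 283 for Tsc2, 256 for Rheb, 203 for Rps6kb1, 198 for Rptor and 158 for Tsc1. The members thus formed a higher set of 4 and a lower set of 6: the lowest library of Eif4ebp1 had 480 per kb, above the highest library of Mtor at 375 per kb. Within each set, neighbouring genes overlapped over the libraries. Deptor ranged from 884 to 1365 per kb and Akt1s1 from 771 to 1057, and Rptor ranged from 171 to 253 and Tsc1 from 118 to 199. Replicates were close, with a median coefficient of variation within groups between 3.61% for Tsc2 and 9.79% for Deptor. Exons of Mtor, Tsc1, Rheb, Eif4ebp1 and Eif4ebp2 overlap no exon of another gene in the GENCODE M21 annotation of GRCm38. Tsc2 shares 693 bases (7.2% of its exonic bases) with Pkd1 on the other strand, and Deptor, Akt1s1, Rps6kb1 and Rptor share 3.41%, 2.9%, 1.79% and 0.624% with the neighbour they overlap most. The strand setting of the counting is not given in the sources used here.

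**Figure D1:**
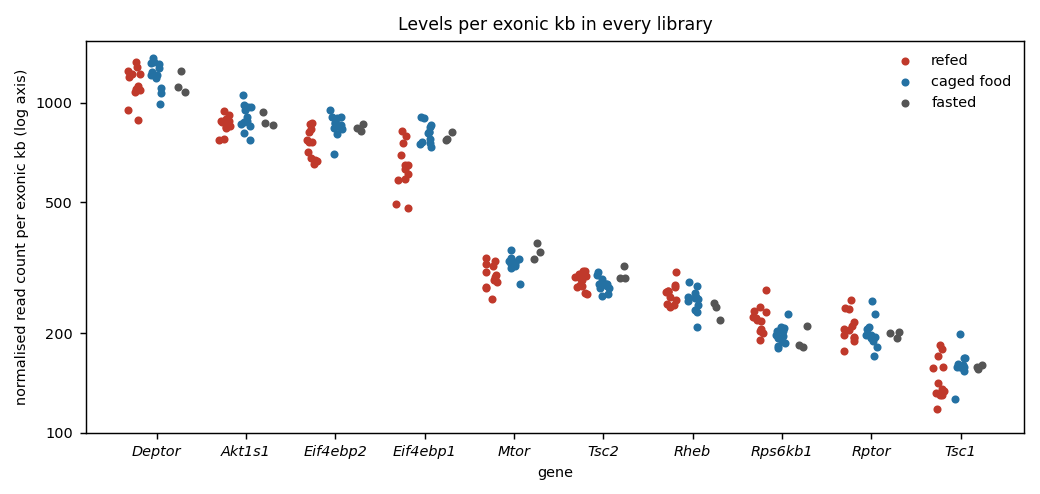
Level of each member in all 27 libraries, in normalised read counts per exonic kb on a log axis, with refed, caged food and fasted livers side by side (12, 12 and 3 points). The lowest library of Deptor, Akt1s1, Eif4ebp2 and Eif4ebp1 lies at 480 per kb and the highest of the other 6 members at 375 per kb.

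Variation over the 9 groups was modest in size and was detected in 6 of the 10 members. The median range of group means was 0.36 on the log2 scale for the members, from 0.16 for Tsc2 to 0.71 for Eif4ebp1, against a median of 0.56 over all genes tested. By mean level the members stood between percentiles 76.27 (Eif4ebp1) and 96.55 (Deptor) of all genes tested. Their range was not compared with that of genes of like level. With limma's moderated F test and adjustment over all genes tested, Eif4ebp1 (adjusted p = 1.46e-05), Mtor (0.00477), Eif4ebp2 (0.00816), Rps6kb1 (0.00916), Tsc1 (0.019) and Rptor (0.0238) passed the threshold of 0.05, and 34.8% of all genes tested did so. Rheb (0.0932), Akt1s1 (0.104), Deptor (0.334) and Tsc2 (0.391) did not. Without the 2 libraries of conflicting labels the p of Rptor was 0.0806 and the other 5 calls held. It was 0.0568 to 0.108 without any 1 of the 3 refed 240 min libraries, and that of Tsc1 was 0.0592 without refed 120 min replicate 2. The calls of Rptor and Rps6kb1 were also lost without the 7 libraries that stood apart.

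**Figure D2:**
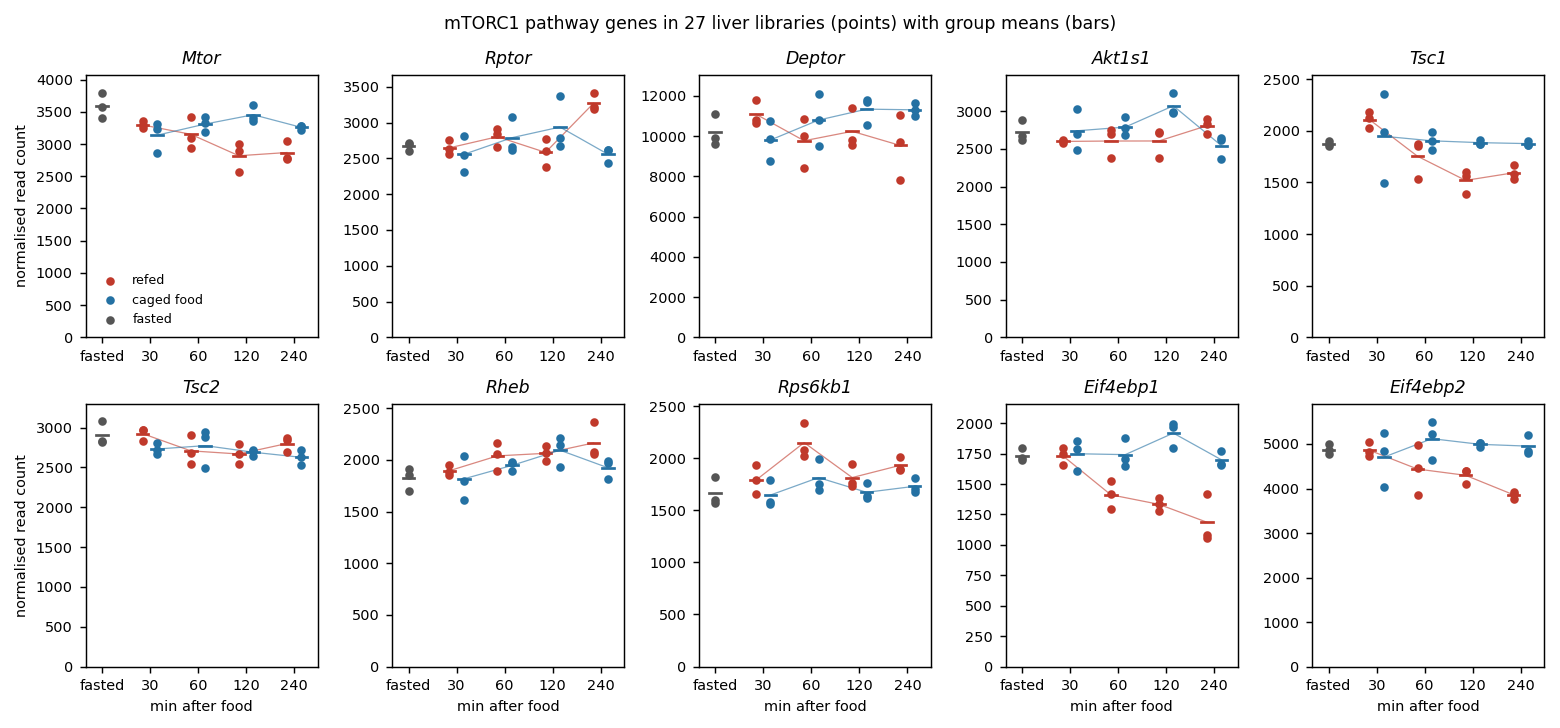
Normalised read counts of the 10 members in every library (points) and group means (bars), with fasted livers at the left of each panel and refed and caged food livers at 30, 60, 120 and 240 min after food. The refed points of Eif4ebp1 at 60, 120 and 240 min, at 1054 to 1523, lie below all caged food and fasted points, at 1610 to 1991.

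Against fasted livers, transcript levels of the kinase and of both translation repressors were lower in refed livers at some times. Those of the S6 kinase, raptor and Rheb were higher, at different times. The rises of Rps6kb1 at 60 min and of Rheb at 240 min did not pass with limma against caged food livers (adjusted p = 0.054 and 0.129). Of the 10 members, 0 were called at 30 min (background 1.63% of all genes tested), and 1 rose and 1 fell at 60 min (background 7.26% for rises and 3.75% for falls). At 120 min 0 rose and 2 fell (background 7.95% and 6.13%), and at 240 min 2 rose and 3 fell (background 12.9% and 11.4%). At 30 min no member reached an unadjusted p under 0.05, which 11.4% of all genes tested did. In refed livers averaged over the 4 times against fasted livers, 1 member rose and 2 fell (background 8.97% and 5.98%). The median log2 fold change of the 10 members was 0.00, -0.08, -0.10 and -0.08 at 30, 60, 120 and 240 min, and that of all genes tested was between -0.02 and 0.00. Refed and fasted libraries did not overlap for 3, 2, 6 and 7 of the 10 members at these times, against 21.9%, 27.7%, 36.0% and 43.2% of all genes tested. Without the 2 libraries of conflicting labels they did not overlap for 7 members at 240 min, against 53.5% of all genes tested.

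Eif4ebp1, a repressor of cap-dependent translation (ENSMUSG00000031490, chr8:27260329-27276674, plus strand of GRCm38), had the largest change of the members. Its normalised read counts in refed livers were 1798, 1654 and 1746 at 30 min, 1523, 1421 and 1291 at 60 min, 1335, 1281 and 1384 at 120 min, and 1054, 1420 and 1084 at 240 min. Caged food livers had 1787, 1610 and 1850 at 30 min, 1647, 1876 and 1702 at 60 min, 1793, 1972 and 1991 at 120 min, and 1774, 1657 and 1667 at 240 min, and fasted livers had 1710, 1698 and 1794. From 60 min on, every refed library lay below every caged food and fasted library. With 3 libraries per group, the log2 fold change ± SE against fasted livers was -0.30 ± 0.09 at 60 min (adjusted p = 0.0334), -0.38 ± 0.09 at 120 min (0.00584) and -0.56 ± 0.09 at 240 min (7.85e-05). At 240 min Eif4ebp1 thus fell by 32.2%. Against caged food livers of the same time it was -0.30 ± 0.09 at 60 min (0.0311), -0.52 ± 0.09 at 120 min (4.33e-04) and -0.53 ± 0.09 at 240 min (1.18e-04). The calls at 60 min rested on few libraries: against fasted livers the adjusted p was 0.0665 to 0.169 without any 1 of the 3 fasted libraries or without refed replicate 2 or 3, and against caged food livers it was 0.0615 to 0.14 without refed replicate 2 or 3 or caged food replicate 2.

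Eif4ebp2 encodes the paralogous repressor (ENSMUSG00000020091, chr10:61428491-61452661, minus strand). Refed livers had 4809, 4729 and 5041 normalised read counts at 30 min, 3860, 4987 and 4464 at 60 min, 4386, 4394 and 4109 at 120 min, and 3773, 3923 and 3879 at 240 min. In caged food livers there were 5236, 4841 and 4037 at 30 min, 5485, 4651 and 5223 at 60 min, 5021, 4941 and 5015 at 120 min, and 4842, 5211 and 4803 at 240 min, and in fasted livers 5001, 4861 and 4766. All 3 refed libraries lay below all fasted and all time-matched caged food libraries at 120 and at 240 min. At 240 min the gene fell by 20.9% against fasted livers (-0.34 ± 0.09, adjusted p = 0.00551) and fell by 22% against caged food livers (-0.36 ± 0.09, adjusted p = 0.00297). At 120 min the difference was -0.18 ± 0.09 against fasted livers (adjusted p = 0.168) and -0.22 ± 0.09 against caged food livers (adjusted p = 0.111), and neither passed.

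Mtor, the gene of the kinase (ENSMUSG00000028991, chr4:148448611-148557683, plus strand), was lowest in refed livers of the 2 later times. It had 3290, 3357 and 3241 normalised read counts at 30 min of refeeding, 3425, 2931 and 3097 at 60 min, 3001, 2561 and 2892 at 120 min, and 2789, 3044 and 2771 at 240 min. Caged food livers had 3235, 3317 and 2859 at 30 min, 3333, 3180 and 3416 at 60 min, 3398, 3612 and 3353 at 120 min, and 3279, 3224 and 3272 at 240 min, against 3576, 3786 and 3404 in fasted livers. The refed libraries of 120 and 240 min lay below all fasted and all time-matched caged food libraries. Mtor fell by 21.6% at 120 min (-0.35 ± 0.07, adjusted p = 0.00153) and fell by 20.1% at 240 min (-0.32 ± 0.07, adjusted p = 0.00177) against fasted livers. Against caged food livers it fell by 18.6% at 120 min (-0.30 ± 0.07, adjusted p = 0.00753), while at 240 min the difference of -0.19 ± 0.07 did not pass (adjusted p = 0.0574). The call against caged food at 120 min was lost without refed 120 min replicate 2 (-0.23, adjusted p = 0.069), and a call at 240 min appeared without refed 240 min replicate 2 (-0.23, adjusted p = 0.0405).

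Rptor, the gene of the scaffold raptor (ENSMUSG00000025583, chr11:119602905-119899576, plus strand), rose in refed livers at 240 min and was called at no other time. Refed livers of 240 min had 3407, 3186 and 3215 normalised read counts, against 2618, 2611 and 2440 in caged food livers of 240 min and 2700, 2719 and 2608 in fasted livers. The refed livers of 30, 60 and 120 min had 2377 to 2907. Caged food livers had 2545, 2817 and 2303 at 30 min, 2664, 2618 and 3081 at 60 min, and 2666, 3365 and 2778 at 120 min. The 3365 of caged food 120 min replicate 2 thus exceeded the 3186 and 3215 of refed livers of 240 min. All 3 refed libraries of 240 min lay above the fasted ones and the caged food ones of 240 min. At that time Rptor rose by 22.1% against fasted livers (0.29 ± 0.09, adjusted p = 0.0156) and by 27.9% against caged food livers (0.35 ± 0.09, adjusted p = 0.00316). Refed minus caged food differences of Rptor were not the same at the 4 times (limma F test, adjusted p = 0.0285, background 9.97%), though not past the threshold without the 2 libraries of conflicting labels (adjusted p = 0.0697), nor without any 1 of refed 120 min replicate 2, refed 240 min replicate 1 and caged food 240 min replicates 1 and 3 (0.0515 to 0.0847). Against fasted livers the adjusted p was 0.0574 without fasted replicate 3 and 0.0726 without refed 240 min replicate 1.

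Of the genes of the 2 inhibitors in the complex, only Akt1s1 was called with all libraries, at 120 min against caged food livers. Deptor (ENSMUSG00000022419, chr15:55112317-55259271, plus strand) had 7845 to 11803 normalised read counts in the 12 refed libraries, 8789 to 12113 in the 12 caged food libraries and 9603 to 11098 in the fasted libraries, and was called in no comparison. Refed replicate 3 of 240 min, 1 of the libraries of conflicting labels, had 11063 against 9711 and 7845 in the other 2. Without that library alone Deptor was lower in refed than in caged food livers of 240 min (-0.37, adjusted p = 0.0256), and with it the difference was -0.26 ± 0.12 (adjusted p = 0.101). Akt1s1, the gene of PRAS40 (ENSMUSG00000011096, chr7:44848991-44855421, plus strand), had 2376 to 2897 in refed, 2369 to 3246 in caged food and 2625 to 2878 in fasted libraries. At 120 min it had 2727, 2381 and 2709 in refed livers, against 2980, 3246 and 2990 in caged food livers. At that time it fell by 15.3% with no overlap (-0.24 ± 0.08, adjusted p = 0.0424). This call was lost without any 1 of 5 of the 6 libraries compared, with adjusted p between 0.0573 and 0.228, and held without refed replicate 1. It was also lost under 6 of 9 alternative settings (adjusted p = 0.0523 to 0.106). At 240 min Akt1s1 had 2897, 2830 and 2697 in refed livers, all above the 2642, 2620 and 2369 of caged food livers, with a difference of 0.14 ± 0.08 that did not pass (adjusted p = 0.173; 0.20 and 0.15 without the libraries of conflicting labels). Its 3 caged food libraries of 120 min also lay above the 3 fasted libraries, with a difference of 0.17 ± 0.08 that did not pass (adjusted p = 0.589). In the mean over times against caged food livers, neither gene passed (adjusted p = 0.233 for Deptor and 0.192 for Akt1s1). There Deptor passed only with array quality weights (0.0464) and Akt1s1 only without the libraries that stood apart (0.0456).

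Upstream of the kinase, Rheb rose late in refed livers against fasted livers. With all libraries and the main settings, the TSC genes were not called in any single comparison. Rheb (ENSMUSG00000028945, chr5:24802823-24842624, minus strand) had 1855, 1951 and 1879 normalised read counts at 30 min of refeeding, 2058, 1890 and 2168 at 60 min, 2135, 1987 and 2068 at 120 min and 2362, 2076 and 2054 at 240 min, against 1911, 1698 and 1854 in fasted livers. At 240 min all refed libraries lay above all fasted ones, and the rise was 18.7% (0.25 ± 0.08, adjusted p = 0.0267). The call was lost when fasted replicate 2 (0.20, adjusted p = 0.131), refed 240 min replicate 1 (0.18, 0.161) or fasted replicate 3 (0.26, 0.0507) was left out, and with quantile normalization (0.20, 0.0601). Caged food livers had 1614 to 2208, with 2142, 2208 and 1931 at 120 min, and at that time the difference from fasted livers was 0.20 ± 0.08 (adjusted p = 0.548). Refed and caged food livers of 120 min overlapped for Rheb, with a difference of -0.02 ± 0.08 (adjusted p = 0.928). At 240 min all 3 refed libraries lay above the caged food ones, at 1974, 1811 and 1985, and the difference of 0.17 ± 0.08 did not pass (adjusted p = 0.129, and 0.128 without the libraries of conflicting labels).

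Tsc1, which encodes hamartin (ENSMUSG00000026812, chr2:28641228-28691167, plus strand), had 1602, 1392 and 1564 normalised read counts in refed livers of 120 min and 1577, 1535 and 1667 in those of 240 min. Caged food livers had 1913, 1870 and 1871 at 120 min and 1896, 1864 and 1866 at 240 min, and fasted livers 1849, 1896 and 1875. These refed libraries lay below all fasted and time-matched caged food libraries, with differences at 120 min of -0.30 ± 0.10 against fasted livers (adjusted p = 0.0539) and -0.31 ± 0.10 against caged food livers (adjusted p = 0.0549). Neither passed, nor did the differences at 240 min (-0.23 and -0.24, adjusted p = 0.11 and 0.101). Under 9 alternative settings, the difference at 120 min passed in 4 against fasted livers and in 3 against caged food livers. The lowest adjusted p with limma was 0.00344 and 0.0045. At 240 min it passed in 2 of 9 in each comparison, with array quality weights and in a fit of only the groups compared. No call appeared with 1 library left out. Caged food livers of 30 min were spread for this gene, at 2352, 1989 and 1498. Tsc2, which encodes tuberin (ENSMUSG00000002496, chr17:24595816-24632630, minus strand), was the least variable member, with 2539 to 2971 in refed, 2494 to 2943 in caged food and 2821 to 3084 in fasted libraries. Every 95% interval of its refed against fasted differences lay between -0.26 and 0.14.

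Rps6kb1, the gene of the S6 kinase (ENSMUSG00000020516, chr11:86498871-86544805, minus strand), rose at 60 min of refeeding. It had 1786, 1932 and 1652 normalised read counts at 30 min, 2083, 2025 and 2341 at 60 min, 1759, 1947 and 1736 at 120 min and 2008, 1891 and 1896 at 240 min of refeeding. Caged food livers had 1562, 1795 and 1582 at 30 min, 1699, 1754 and 1988 at 60 min, 1758, 1639 and 1620 at 120 min and 1671, 1814 and 1706 at 240 min, against 1816, 1600 and 1571 in fasted livers. Every refed library of 60 min lay above every fasted and caged food library of the series. The rise at 60 min was 29.3% against fasted livers (0.37 ± 0.08, adjusted p = 0.00339). Against caged food livers of 60 min the difference was 0.25 ± 0.08 (adjusted p = 0.054) and did not pass, although it did without refed replicate 2 (0.29, adjusted p = 0.0482) or caged food replicate 3 (0.31, adjusted p = 0.0223). At 240 min all 3 refed libraries also lay above all fasted and all time-matched caged food libraries. The difference then was 0.22 ± 0.08 against fasted livers (adjusted p = 0.0525) and 0.16 ± 0.08 against caged food livers (adjusted p = 0.159), and neither passed. That against fasted livers did pass with array quality weights and without fasted replicate 1. A change of the refed minus caged food difference of Rps6kb1 was not found over the 4 times (limma F test, adjusted p = 0.814).

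Set against caged food livers, which shared no library with the refed groups, 0 members were called at 30 min (background 0.276%), and 0 rose and 1 fell at 60 min (background 6.73% for rises and 4.18% for falls). At 120 min 0 rose and 3 fell (background 5.98% and 5.30%), and at 240 min 1 rose and 2 fell (background 14.6% and 12.4%). Refed and caged food libraries did not overlap for 1, 2, 5 and 8 of the 10 members at 30, 60, 120 and 240 min, against 11.7%, 21.9%, 29.7% and 41.7% of all genes tested. Without the 2 libraries of conflicting labels they did not overlap for 9 members at 240 min, against 59.5% of all genes tested. No member had an unadjusted p under 0.05 at 30 min, which 7.53% of all genes tested had. In the mean over the 4 times, Eif4ebp1 (-0.34 ± 0.05, adjusted p = 3.41e-06), Eif4ebp2 (-0.18 ± 0.04, adjusted p = 0.00202) and Mtor (-0.12 ± 0.04, adjusted p = 0.0122) fell and Rps6kb1 rose (0.16 ± 0.04, adjusted p = 0.00387), against a background of 17.3% for rises and 14.1% for falls. Refed means over the 4 times against fasted livers gave falls of Eif4ebp1 (-0.31 ± 0.07, adjusted p = 0.00442) and Mtor (-0.25 ± 0.06, adjusted p = 0.00426) and a rise of Rps6kb1 (0.21 ± 0.06, adjusted p = 0.0322). The rise of Rps6kb1 in that comparison was lost without fasted replicate 2 or 3 (adjusted p = 0.172 and 0.203) and the fall of Mtor without fasted replicate 2 (adjusted p = 0.0594). Eif4ebp2 did not pass there (-0.17 ± 0.07, adjusted p = 0.101), but did without refed 60 min replicate 2 (adjusted p = 0.0476). Tsc1 was at -0.13 ± 0.05 against caged food livers (adjusted p = 0.0556) and passed without caged food 30 min replicate 3 (-0.18, 0.00121), without refed 60 min replicate 2 or 3 (-0.15 and -0.14, 0.0439 and 0.0478) or with quantile normalization (-0.15, 0.0302).

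**Figure D3:**
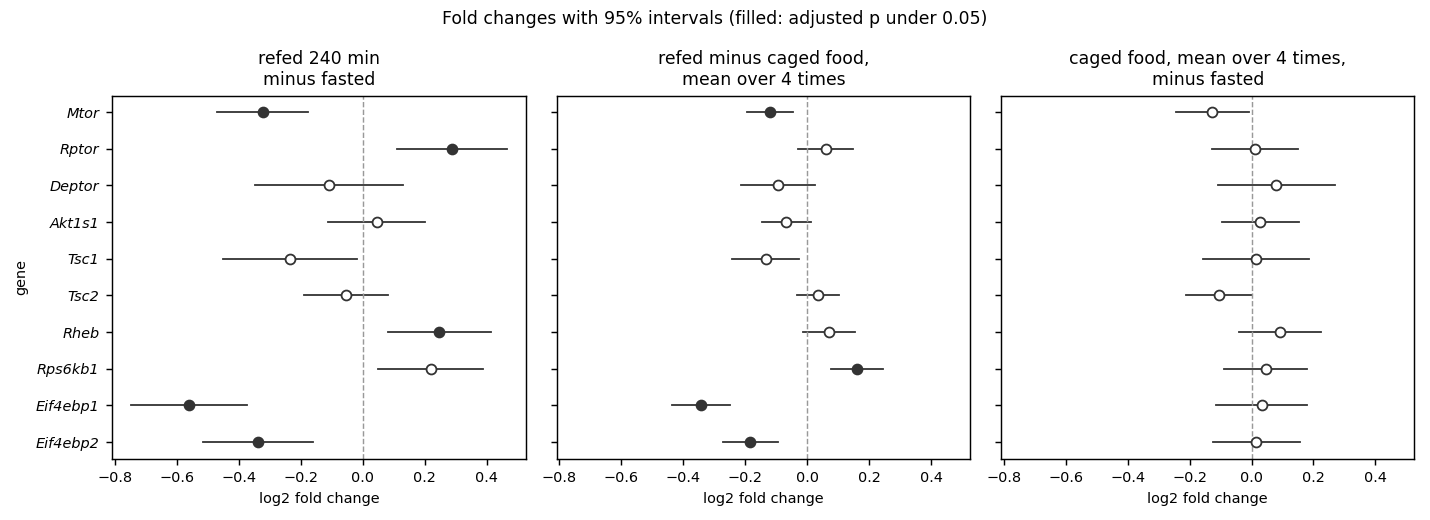
Log2 fold changes of the 10 members (points) with 95% confidence intervals (lines) for refed 240 min minus fasted, refed minus caged food and caged food minus fasted livers, the last 2 as means over the 4 times; filled points have an adjusted p under 0.05. Eif4ebp1 lies at -0.56 and -0.34 in the first 2 panels, and all 10 members are unfilled in the last.

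The results at 240 min were examined with and without the 2 libraries of conflicting labels. By their values, refed replicate 3 had 1084 normalised read counts of Eif4ebp1 and 3215 of Rptor, beside 1054 and 1420, and 3407 and 3186, in the other refed libraries, and caged food replicate 1 had 1774 and 2618. Without both, the 5 members called against fasted livers were again called: Eif4ebp1 (-0.50, adjusted p = 0.00116), Mtor (-0.30, 0.0129), Eif4ebp2 (-0.34, 0.0185), Rheb (0.28, 0.0318) and Rptor (0.30, 0.0363). Against caged food livers Eif4ebp1 (-0.44, adjusted p = 0.0072), Eif4ebp2 (-0.38, 0.0181) and Rptor (0.38, 0.0159) were called as before, and Deptor was called as well (-0.39, 0.0433). The calls of the means over times were kept for all members without these libraries. Grouped by the treatment label in place of the title, 0 of the 10 members were called at 240 min in either comparison. Eif4ebp1 was then at -0.32 against fasted livers (adjusted p = 0.278) and -0.06 against caged food livers (adjusted p = 0.934).

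Estimated depth at 240 min was 49.0, 42.6 and 28.9 M reads in the refed libraries, against 44.9, 31.2 and 25.6 M reads in the caged food libraries. Summed markers of sinusoidal endothelium were lower in refed livers of 240 min (14733 to 15177) than in caged food livers of 240 min (16923 to 17339) and fasted livers (16113 to 18705), and those of stellate cells likewise (11761 to 15369, against 15904 to 18514 and 15851 to 18131). Leukocyte markers summed to 721 to 857 in the refed livers of 240 min, 596 to 937 in the caged food livers and 492 to 710 in the fasted livers. None of these markers was at 0 in all libraries of a group. Hepatocyte markers overlapped, at 3656018 to 4880881, 4778503 to 5046993 and 4766795 to 5451230. At 120 min, endothelial markers were also lower in refed (16165 to 16856) than in caged food livers (18390 to 20024). Hepatocyte markers were lower there too (4313512 to 4867999, against 5013551 to 5666265). Those of cholangiocytes were higher (1439 to 1840, against 986 to 1431), and those of stellate cells overlapped. The part of depth and of the cell makeup in the member results was not tested.

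Caged food alone was followed by no called change in any member. Against fasted livers, 0 of 10 members were called at 30, 60, 120 and 240 min and in the mean over times with limma (background 0.0126%, 0.220%, 0.0377%, 0% and 0% of all genes tested). At an unadjusted p under 0.05 there were 1, 0, 2 and 1 members at the 4 times and 1 in the mean, against 7.05%, 9.85%, 7.70%, 4.72% and 4.05% of all genes tested. Over the 4 times the 95% intervals of the members reached from -0.34 to 0.39 on the log2 scale, and in the mean over times from -0.24 to 0.27. Mtor was the member at an unadjusted p under 0.05 in the mean, at -0.13 ± 0.06 (adjusted p = 0.996), with 10 of 12 caged food libraries below all 3 fasted libraries. Tsc2 also had 10 of 12 caged food libraries below all 3 fasted ones, at -0.11 ± 0.05 in the mean (limma, unadjusted p = 0.0526, adjusted p = 0.996). Its libraries did not overlap at 30, 120 and 240 min, with an unadjusted p of 0.0342 at 240 min (adjusted p = 0.994). Caged food and fasted libraries did not overlap for 2, 0, 3 and 2 members at the 4 times, against 12.7%, 14.7%, 16.1% and 13.8% of all genes tested. Without the library of conflicting labels in the caged food group of 240 min they did not overlap for 5 members at that time, against 23.9% of all genes tested. A p that misses the threshold does not show that caged food and fasted livers were alike for these genes.

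The other genes of the pathway also moved in both directions. Of 75 genes tested in 6 lists, 9 rose and 9 fell in refed livers averaged over the times against fasted livers, beside the background of 8.97% and 5.98% of all genes tested. Against caged food livers 21 rose and 17 fell, beside 17.3% and 14.1%, and 0 were called between caged food and fasted livers. By time, refed against fasted livers gave 2 rises and 1 fall at 30 min, where 1.63% of all genes tested were called. At 60 min 8 rose and 11 fell (background 7.26% and 3.75%), at 120 min 8 rose and 9 fell (7.95% and 6.13%) and at 240 min 17 rose and 13 fell (12.9% and 11.4%). Without the 2 libraries of conflicting labels 16 rose and 13 fell at 240 min, beside 11.1% and 9.47%. Median log2 fold changes of the 5 lists other than the amino acid sensors lay between 0.01 and 0.04 against fasted livers and between -0.03 and 0.09 against caged food livers, beside 0.00 and -0.01 for all genes tested. The genes named for each list are those of lowest p in the means over times. The counts and medians given below for each list are also those of the means over times, unless a time is named. In each list, other genes were called at single times.

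Among the amino acid sensors 0 rose and 2 of 5 fell against fasted livers, with a median of -0.24 over the 5 genes, and 3 of 5 fell against caged food livers, with a median of -0.26. Sesn2, which encodes a leucine sensor that restrains mTORC1, had 335, 326 and 248 normalised read counts in refed livers of 60 min, against 1211, 1364 and 1082 in caged food livers of 60 min and 931, 1219 and 1104 in fasted livers. Its mean difference over the times was -1.42 ± 0.16 from fasted (adjusted p = 2.92e-06) and -1.26 ± 0.10 from caged food livers (2.52e-09), with no refed library of 60, 120 or 240 min above 476 and no caged food or fasted library below 633. Its relative Sesn1 fell by 0.25 ± 0.07 against fasted livers (0.0177) and by 0.32 ± 0.05 against caged food livers (8.23e-06) on the log2 scale. The call of Sesn1 against fasted livers was lost when fasted replicate 1 (-0.22, adjusted p = 0.117) or fasted replicate 3 (-0.26, 0.0753) was left out.

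In the means over times, 1 of the 8 other subunits and assembly factors of mTORC1 and mTORC2 rose against fasted livers. Against caged food livers 4 rose and 1 fell. At single times against fasted livers, 2, 1 and 3 rose at 60, 120 and 240 min. Mlst8, a subunit shared by both complexes, had 400, 481 and 363 normalised read counts in refed livers of 240 min, against 295, 280 and 255 in caged food livers and 249, 289 and 298 in fasted livers. Its mean difference over the times was 0.44 ± 0.10 from fasted (adjusted p = 0.00398) and 0.46 ± 0.06 from caged food livers (6.15e-06). Without fasted replicate 1 the difference from fasted livers was 0.36 (0.0532). Tti1, part of a chaperone of such kinases, rose against caged food livers (0.20 ± 0.04, 1.47e-04).

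Among 10 genes of the Rag GTPases and Ragulator, which bring mTORC1 to the lysosome, 1 rose and 1 fell against fasted livers and 2 rose and 1 fell against caged food livers. Lamtor3, a Ragulator subunit, rose by 0.41 ± 0.08 against fasted livers (adjusted p = 5.89e-04) and by 0.29 ± 0.05 against caged food livers (4.88e-05). Slc38a9, a lysosomal arginine sensor, fell by 0.24 ± 0.07 against fasted livers (0.0249) and by 0.17 ± 0.05 against caged food livers (0.00645), and its call against fasted livers was lost without any 1 of the 3 fasted libraries (adjusted p = 0.0603 to 0.157). In the list of GATOR1, GATOR2, KICSTOR and folliculin, 0 of 14 genes were called against fasted livers in the mean over times. At single times against fasted livers, 1 fell at 60 min, 1 rose at 120 min, and 1 rose and 2 fell at 240 min. Against caged food livers 4 rose and 2 fell in the mean over times. There the folliculin gene Flcn fell by 0.31 ± 0.05 (9.85e-05), and Nprl3, a GATOR1 subunit, rose by 0.26 ± 0.05 (1.94e-04).

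Of 18 upstream kinases, phosphatase and stress inputs, 3 rose and 1 fell against fasted livers and 5 rose and 3 fell against caged food livers. Pik3r1, a regulatory subunit of phosphoinositide 3-kinase, had 5415, 7563 and 7963 normalised read counts in refed livers of 60 min, against 3297, 2788 and 3407 in caged food livers and 3444, 3452 and 2710 in fasted livers. Over the times it rose by 0.72 ± 0.11 against fasted livers (adjusted p = 1.38e-04) and by 0.76 ± 0.07 against caged food livers (2.73e-08). Rhebl1, a Rheb paralogue with 8 to 36 normalised read counts in any library, fell by 1.14 ± 0.22 against fasted livers (0.00103), while Prkab1, an AMPK subunit, rose against caged food livers (0.26 ± 0.04, 1.46e-05). In the list of targets and effectors, 4 of 20 rose and 5 fell against fasted livers and 6 rose and 7 fell against caged food livers. Maf1, a repressor of RNA polymerase III held in check by mTORC1, had 668, 810 and 735 in refed livers of 240 min, against 1292, 1304 and 1384 in caged food and 1211, 1263 and 1331 in fasted livers. Ulk1, the autophagy kinase that mTORC1 inhibits, had 1793, 2282 and 2143 in refed livers of 240 min, against 4080, 4609 and 4016 in caged food and 4831, 4377 and 4168 in fasted livers. Against fasted livers, Maf1 fell by 0.58 ± 0.06 (1.36e-06) and Ulk1 by 0.62 ± 0.07 (2.78e-06) over the times. Against caged food livers, Maf1 fell by 0.56 ± 0.04 (3.73e-10) and Ulk1 by 0.63 ± 0.04 (4.71e-10).

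All calls of the listed genes named above held in these means without the 2 libraries of conflicting labels. With those libraries grouped by the treatment label, Maf1 (adjusted p = 0.0773), Mlst8 (0.0896), Ulk1 (0.106), Rhebl1 (0.116), Slc38a9 (0.188) and Sesn1 (0.234) were not called against fasted livers, nor were Slc38a9 (0.138) and Tti1 (0.195) against caged food livers. Without the 7 libraries that stood apart, the calls of Sesn1 against fasted livers (0.0532) and of Slc38a9 against caged food livers (0.229) were lost.

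**Figure D4:**
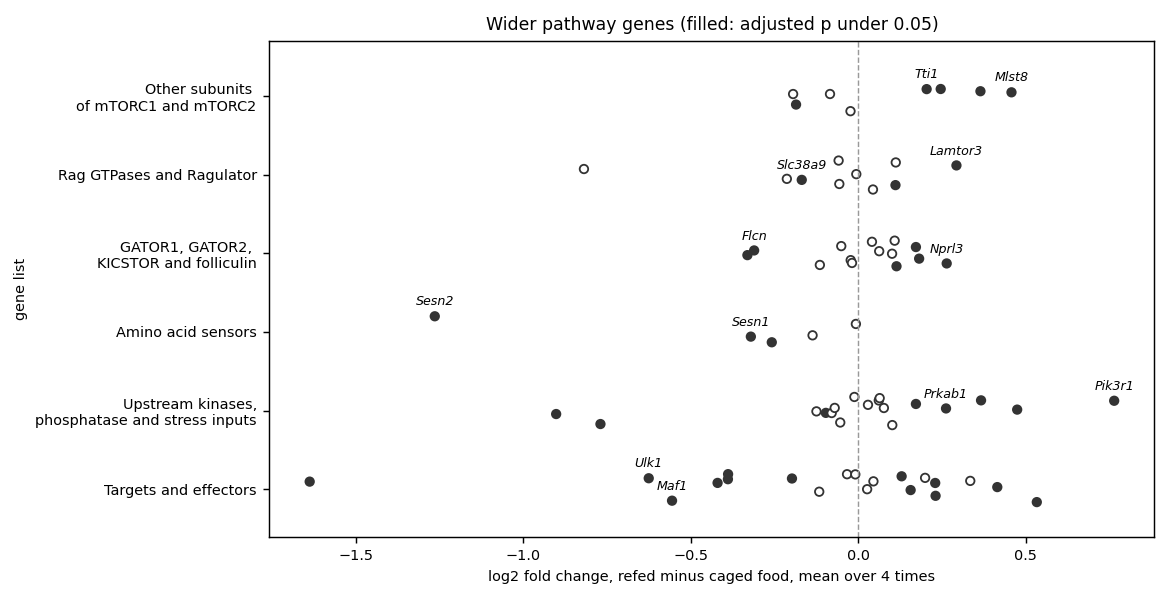
Log2 fold changes of 75 other pathway genes in refed minus caged food livers, as means over the 4 times, by list from top to bottom; each point is a gene, and filled points have an adjusted p under 0.05. Sesn2 (-1.26) and Pik3r1 (0.76) are labelled with the other genes of lowest p in each list.

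For the 6 members that varied over the groups, the nearest profiles were sought among 10962 genes by the root mean square difference between centred log2 group means, over the 9 groups. Nearest to Eif4ebp2 was Wipi2 (0.0192), with mean normalised read counts of 5054, 4749, 4584 and 4056 in refed livers of 30 to 240 min, 4992 to 5329 in caged food livers and 5181 in fasted livers, and next was Bche. Nearest to Mtor was Suox (0.0309), with 9615, 9581, 8487 and 8636 in refed livers, 9591 to 10790 in caged food livers and 10600 in fasted livers, and next was Myh14. Eif4ebp1 was nearest to Tdo2 (0.0503), the gene of tryptophan dioxygenase, which lay at 125600, 112200, 100700 and 89270 in refed livers, 128700 to 136300 in caged food livers and 133800 in fasted livers, and next to Ranbp10. The nearest genes were Smek1 and Camsap2 for Rps6kb1, Tysnd1 and Ap1m1 for Rptor, and Stom and H2-Q10 for Tsc1, at 0.0358 to 0.0451. Over all candidates the median difference was 0.172 to 0.255.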

How the data were processed

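Liver mRNA libraries were grouped by their titles into 9 groups of 3. Per the submitters' processing notes, STAR 2.4.0a, featureCounts 1.4.5-p1 from Subread and the mouse build mm10 (GRCm38) were used. The authors deposited 1 table of the whole series that holds, per gene and library, a score: read counts scaled by the authors per library and rounded to whole numbers, by a method not given in the sources used here. The series' design text mentions 60 samples; only 27 libraries were analysed here. The spacing of low values gave an estimate of depth. Of the identifiers, 98.8% matched GENCODE M21 of GRCm38, which gave coordinates and exon lengths; promoters came from RefSeq.

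Tests used log2(value + 1) of genes for which 3 or more libraries had a score of 10 or more, so that fold changes of low genes are understated. In R 4.3.3, a single limma 3.58.1 fit, with its trend of variance on mean level, covered the 9 group means with 18 residual degrees of freedom, and was tested on simulated data. Tests were two-sided, the Benjamini-Hochberg adjustment ran over all genes tested in a comparison, and calls needed an adjusted p under 0.05. Fold changes are log2 ± SE. Comparisons with fasted livers share the same 3 fasted libraries. The spread behind each p was that between libraries within groups, pooled over the 9 groups and moderated by limma over genes. The SE of a gene was therefore the same in every comparison of single times.

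All members were tested in every comparison, and differences that did not pass were described for some of them. Named from each wider list were up to 2 called genes of lowest p per comparison of means over times, and as nearest profiles the 2 closest genes with a mean of at least 50, without predicted, sex-linked and ribosomal pseudogenes. The members, lists and cell type markers (hepatocyte, Kupffer cell, sinusoidal endothelium, stellate cell, cholangiocyte, leukocyte, erythroid, pancreatic acinar cell, adipocyte) were chosen with earlier results of these data known. Of the amino acid sensor list, 5 of 8 entries were in the table, Gatsl2 and Gatsl3 among them. The list also holds these genes under the symbols Castor2 and Castor1, so a missing entry need not be a missing gene. Each result was recomputed with array quality weights, quantile normalization, a replicate block, a pseudocount of 5, all genes unfiltered, or the compared groups fitted alone. It was also recomputed with each replicate left out in turn, with 7 libraries left out that had stood apart on a principal component or in pancreas transcripts in an earlier look at these data (refed 30, 120 and 240 min replicate 1, caged food 30 min replicates 1 and 2, 60 min replicate 2 and 120 min replicate 3), and with the 2 conflicting libraries either left out or moved to the group their treatment label names. Python 3.11.15, matplotlib 3.10.9, numpy 2.4.6 and pandas 2.3.3 were used.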

Additional observations from a re-analysis of the deposited data

Results flagged for a closer look

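For 2 members the refed minus caged food difference changed over the 4 times by limma's F test of that difference, adjusted over all genes tested, which called 9.97% of all genes. Rptor had an adjusted p of 0.0285, with differences of refed minus caged food on the log2 scale of 0.05, 0.01, -0.18 and 0.35 at 30, 60, 120 and 240 min. Eif4ebp1 had an adjusted p of 0.0219, with differences of -0.01, -0.30, -0.52 and -0.53. Without the 2 libraries of conflicting labels the adjusted p was 0.0697 for Rptor and 0.0529 for Eif4ebp1. For Eif4ebp1 it was 0.0501 to 0.0668 without refed 30 min replicate 1 or 3 or caged food 30 min replicate 2, and for Rptor 0.0515 to 0.0847 without refed 120 min replicate 2, refed 240 min replicate 1 or caged food 240 min replicate 1 or 3.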

How the results depend on the processing

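No called result changed direction under the alternatives run. Of the calls of single members with all libraries, those of Mtor at 120 min and of Rps6kb1 at 60 min of refeeding against fasted livers held under all 9 alternatives and with any 1 library of the groups compared left out. Those of Eif4ebp1 at 120 and 240 min and of Eif4ebp2 at 240 min, against fasted and against caged food livers, were lost only with the 2 conflicting libraries grouped by the treatment label. In that grouping the number of members called fell to 1 at 60 and 120 min against fasted livers, and to 0 in all other comparisons of refed livers, over the 9 groups and in the test over time. The number of genes called there was 103, 901, 768 and 0 at 30, 60, 120 and 240 min and 247 in the mean for refed against fasted livers, 4, 908, 376 and 1 at these times and 1656 in the mean for refed against caged food livers, 1, 3, 0 and 1 at these times for caged food against fasted livers, 1880 over the groups and 43 for the test over time.

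Without the 2 conflicting libraries, 0 members were called in the test over time, and the genes called between caged food and fasted livers were 20 at 60 min and 1 at 240 min. With array quality weights, 5 members were called at 120 min and 5 in the mean against fasted livers, 0, 5 and 6 at 60, 120 and 240 min against caged food livers, and 4 in the test over time. The genes called with these weights were 759 at 30 min, 4520 at 120 min and 4240 in the mean for refed against fasted, 67 at 30 min and 121 at 120 min for caged food against fasted, 88 at 30 min and 3303 at 120 min for refed against caged food, and 2741 in the test over time. Without the 7 libraries that stood apart, 3 members were called at 240 min against fasted livers (Rptor at adjusted p = 0.0606 and Rheb at 0.0997 were lost), 1 at 30 min against caged food livers (Tsc1, 0.52, 0.0473, with 1 caged food library left) and 0 at 60 min. In the means over times Mtor was then lost against caged food livers (0.0877) and Rps6kb1 against fasted livers (0.0661). The genes called were then 165 at 30 min for refed against fasted, 19, 20 and 0 at 30, 60 and 120 min for caged food against fasted, 86 at 30 min for refed against caged food, and 887 in the test over time.

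With no filter on low values, 1 member was called at 60 min against fasted livers and 0 against caged food livers, and 14 genes at 60 min and 1 at 240 min differed between caged food and fasted livers. A fit of only the groups compared gave 1 and 0 members for these comparisons of refed livers at 60 min, and 1153 and 465 genes. It gave 20 genes at 30 min for refed against caged food and 1, 0 and 0 genes at 30, 60 and 120 min for caged food against fasted. Quantile normalization gave 2 members at 60 min against caged food livers and 19 genes at 60 min for caged food against fasted. It moved the median of all genes by at most 0.02 on the log2 scale. A pseudocount of 5 left every count within 1.5 times.

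Replicate numbers were not taken to pair libraries. Over 108 pairs of same-numbered libraries of different groups the mean correlation of deviations from the group means was -0.00944, 7 pairs were over 0.1, and 8 of 27 libraries were closest to their own number. With the replicate block, 20 genes were called at 60 min between caged food and fasted livers, and among the members Akt1s1 at 120 min against caged food livers was no longer called (adjusted p = 0.0592).

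With 1 library left out at a time, the members called ranged over 0, 1 to 3, 2 and 3 to 6 at 30, 60, 120 and 240 min and 1 to 4 in the mean for refed against fasted livers, and over 0, 0 to 2, 1 to 3 and 3 to 4 at 30, 60, 120 and 240 min and 4 to 5 in the mean for refed against caged food livers. They were 5 to 7 over the groups and 1 to 4 in the test over time, and 0 for caged food against fasted. The genes called were 89 to 200, 1131 to 1553, 1490 to 1838 and 2587 to 3395 at 30, 60, 120 and 240 min and 1219 to 2467 in the mean for refed against fasted, 8 to 31, 1204 to 1700, 1111 to 1504 and 3040 to 4009 at 30, 60, 120 and 240 min and 4538 to 5129 in the mean for refed against caged food, and 2 to 5, 2 to 34, 0 to 9 and 0 at 30, 60, 120 and 240 min and 0 to 1 in the mean for caged food against fasted. They were 4704 to 5834 over the groups and 1040 to 1662 in the test over time. The members had 1054 or more normalised read counts in every library, and the effect of depth on their spread was not tested. With 3 libraries per group, the standard errors of the members were 0.07 to 0.12 on the log2 scale for single times.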
